A study of Mus musculus with 6 samples.

Results

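The mRNA levels of 10 genes of hypoxia sensing and blood vessel growth were described in sorted osteoblasts (OBs): the oxygen-regulated factors *Hif1a* and *Epas1*, the oxygen sensors *Egln1* and *Egln3*, the hypoxia-induced genes *Bnip3* and *Adm*, and the vessel growth factors *Vegfa*, *Vegfb*, *Vegfc* and *Angpt1*. They were chosen by gene symbol from 23284 genes listed for each sample, and all 10 were found in all 6 samples. ECFP+ OBs came from ectopic bone that had formed around a BMP-2-containing implant in *Col2.3*-ECFP mice, with 3 samples taken on day 10 and 3 on day 14. In these mice, which served for both days with no untreated group, a collagen type I promoter fragment drives a cyan fluorescent protein in cells of the OB lineage, so the sort captures cells by promoter activity. The sort left out CD45+ blood-lineage cells and dead cells. The tissue was digested with 0.25% trypsin for 15 min and with 0.2% collagenase II for 40 min, a step run 1 time for day 10 tissue but 2 times for day 14 tissue, so effects of digestion and of the day cannot be told apart. Sample titles place the later group on day 14, which was followed here, whereas free-text descriptions give day 14, 15 and 16 for its replicates 1, 2 and 3.

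Cells sense oxygen through prolyl hydroxylases (the EGLN proteins), which mark the HIF alpha subunits HIF-1α and HIF-2α for breakdown when oxygen is present. In low oxygen the subunits are spared, pair with ARNT and switch on genes for glycolysis, mitochondrial turnover and vessel growth, among them *Vegfa*. Because this control acts mostly on HIF protein, the mRNA levels given here do not measure HIF activity. In bone, OB-lineage cells are a known source of VEGF, and vessel growth accompanies bone formation.

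*Bnip3*, *Adm* and *Egln3* are known targets of the HIF factors, so the sequence just upstream of their transcription starts is shown. The HIF core motif was searched as ACGTG and GCGTG on both strands within 250 bases upstream of the start in RefSeq promoters (GRCm38.p6), and capitals mark the matches, which on the other strand read CACGT and CACGC. The stretches run 5′ to 3′ on the strand of the gene, from 250 to 21 bases upstream of the start. They overlap no exon of the same gene in the GENCODE vM21 annotation, and overlap with exons of other genes was not checked.
Bnip3 (chr7:138909527-138909756, minus strand): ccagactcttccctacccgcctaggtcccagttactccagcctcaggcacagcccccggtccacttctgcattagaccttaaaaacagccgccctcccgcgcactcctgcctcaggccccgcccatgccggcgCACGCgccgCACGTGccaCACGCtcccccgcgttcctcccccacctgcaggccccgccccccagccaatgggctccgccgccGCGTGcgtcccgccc
Adm (chr7:110627407-110627636, plus strand): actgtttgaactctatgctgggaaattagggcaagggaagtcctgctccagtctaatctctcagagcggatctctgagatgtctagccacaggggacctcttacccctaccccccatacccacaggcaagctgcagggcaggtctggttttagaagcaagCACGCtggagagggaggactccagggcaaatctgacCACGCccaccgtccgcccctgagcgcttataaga
Egln3 (chr12:54203895-54204124, minus strand): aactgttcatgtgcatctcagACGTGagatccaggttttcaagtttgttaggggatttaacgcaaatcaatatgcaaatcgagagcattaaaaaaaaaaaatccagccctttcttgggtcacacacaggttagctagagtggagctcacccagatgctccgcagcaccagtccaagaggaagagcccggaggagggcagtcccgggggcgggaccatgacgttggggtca

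The *Bnip3* stretch held 5 matches, 2 of them on opposite strands of the same CACGTG. There were 2 matches for *Adm* and 1 for *Egln3*. Of all 32851 promoters in the table, 38.6% held at least 1 match in their 250 bases, 16.7% held 2 or more and 2.58% held 4 or more. Among the 16843 promoters of genes tested here, 47.1% held at least 1 match. Of the other genes, *Hif1a* had 3 matches, *Egln1* and *Vegfb* had 2 each and *Vegfc* had 0. *Vegfa*, which has 2 listed starts, had 0 matches at one and 2 at the other, but the window with 2 matches holds 218 bases of annotated *Vegfa* exons, so its matches may lie in transcribed sequence. The bases just after that start were not found in an annotated transcript of the gene, nor were those of *Hif1a* and *Vegfc*, and the *Egln1* window holds 50 annotated exon bases. *Epas1* and *Angpt1* were not matched in the promoter table. A match describes letters in the window, and 0 matches say only that these letters were not there.

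The values are FPKM, fragments per kilobase of transcript scaled to the depth of the library, as deposited by the authors from 75-base single-end reads mapped to mm10. FPKM is a level per transcript length, so levels of different genes were set beside each other within a sample. From the steps between low FPKM values, depth was estimated at 4530215 to 7756703 reads per sample, and the medians were 5557647 (day 10) and 5938109 (day 14). The 10 genes rested on an estimated 24 reads (*Vegfb*) to 6587 reads (*Hif1a*) in a sample. At 24 reads the counting error alone is 20.4%, and 3 reads on a kilobase of transcript correspond to 0.387 to 0.662 FPKM, limits that cover counting error only. Days were compared with limma on log2(FPKM + 0.1) over 19526 genes with a mean above 0.1 FPKM, and all 10 genes passed this filter. Fold changes are therefore those of FPKM + 0.1, standard errors (SE) and 95% intervals come from limma, and p-values were adjusted by the Benjamini-Hochberg method over all genes tested.

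The 10 OB markers were detected in every sample, from *Col1a1* at 14151 FPKM or more throughout to *Dlx5* at 0.979 FPKM (replicate 1) and 1.01 FPKM (replicate 3) on day 14. Replicate 2 of day 14 stood apart from the other day 14 samples. Its cartilage gene *Col2a1* was at 687.9 FPKM, against 12.1 FPKM in replicate 1 and 8.75 FPKM in replicate 3 of day 14 and 188.6 to 372.8 FPKM on day 10, and its *Sp7*, an OB transcription factor gene, was at 27.9 FPKM against 9.79 and 4.09 FPKM. The 12 chondrocyte markers summed to 1113 FPKM in that replicate and to 118.1 FPKM in replicate 1 and 74.0 FPKM in replicate 3, and to 432.8 to 872.1 FPKM on day 10. The 12 myeloid markers summed to 11.5 FPKM in replicate 2 of day 14, the lowest of the 6 samples, and to 652.7 FPKM in replicate 3 of day 14, the highest. The log2 fold change of each of the 10 genes is therefore also given without replicate 2 and without replicate 3 of day 14.

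Across the 10 genes, 9 had a higher mean log2 level on day 14, where 46.5% of all genes tested did. The median log2 fold change was 0.52, against -0.04 over all genes tested. None of the 10 had an adjusted p under 0.05 from limma, a threshold passed by 0.0154% of all genes (3 genes). At an unadjusted p under 0.05, 3 of the 10 were higher on day 14 (*Epas1*, *Bnip3* and *Angpt1*), where 5.6% of all genes were. For 2 of the 10, *Bnip3* and *Angpt1*, every day 14 sample lay above every day 10 sample, as for 7.59% of all genes, and 1 of the 10, *Adm*, was over 2-fold higher, as for 5.25%. All 10 had a mean of at least 1 FPKM. With only the 11162 genes at that level tested, 51.2% had a higher mean log2 level on day 14. Of the 11162, 9.11% were higher at an unadjusted p under 0.05, and for 11.4% the day 14 samples all lay above day 10. The counts of 9, 3 and 2 among the 10 genes were unchanged. Over all genes, 1094 were higher and 860 lower on day 14 at an unadjusted p under 0.05, and with each sample scaled to the same FPKM sum (without *Mir682*, a microRNA gene with very high FPKM) the split was 811 and 1111.

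**Figure D1:**
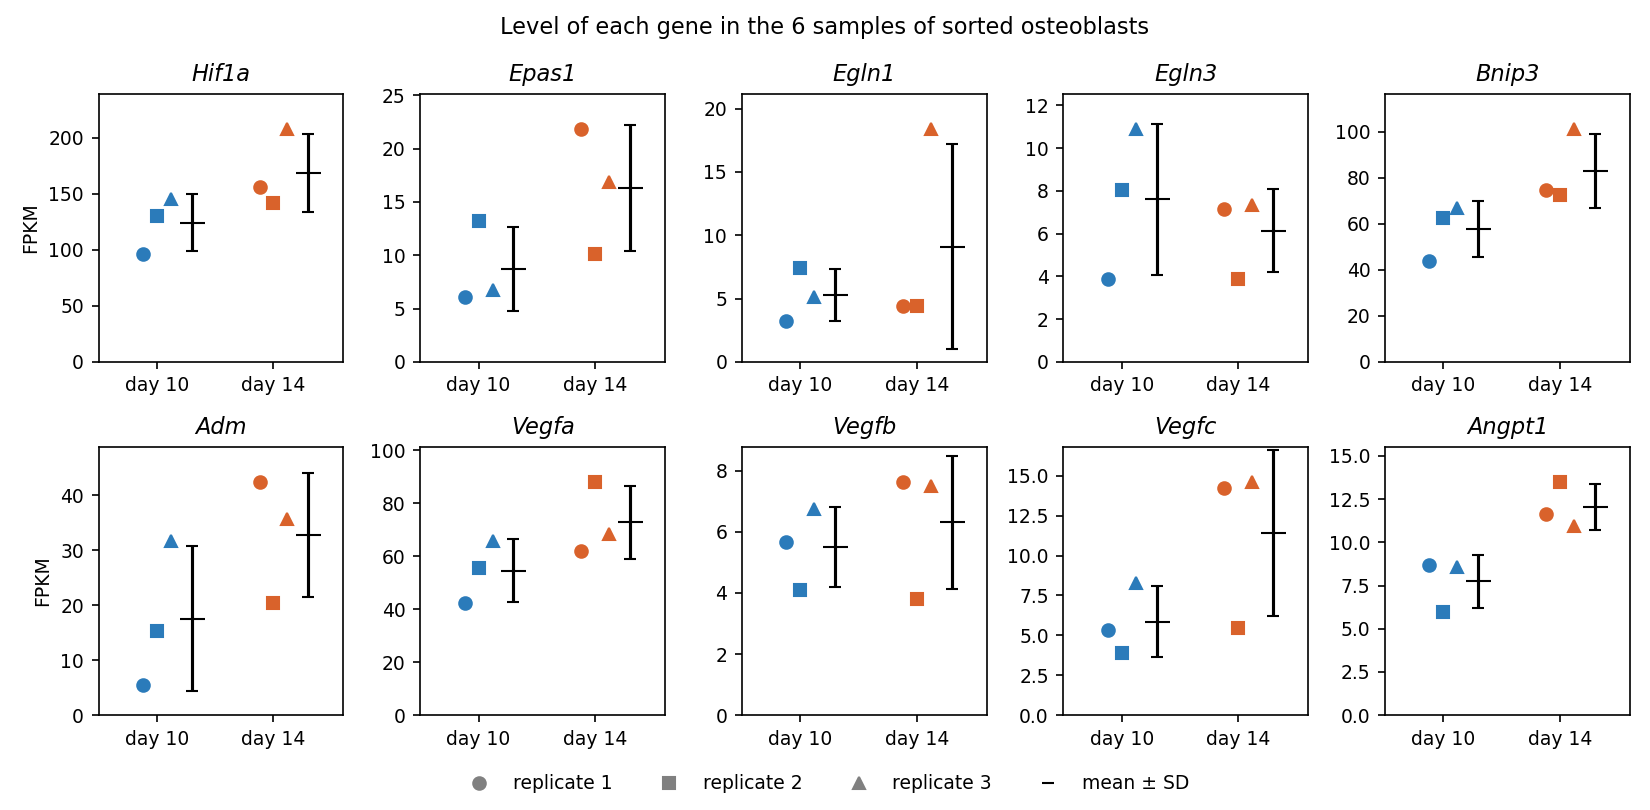
FPKM (y axis, from 0, one scale per panel) of each of the 10 genes on day 10 (blue) and day 14 (orange), with 1 point per sample, shapes for replicates 1, 2 and 3, and bars for the mean ± SD (n = 3). The days do not overlap for *Bnip3* and *Angpt1*, and replicate 3 of day 14 stands alone at 18.4 FPKM for *Egln1*.

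*Hif1a*, on chromosome 12 from 73901375 to 73947530 (mm10, plus strand), encodes HIF-1α and had the highest level of the 10 genes on both days. Replicates 1, 2 and 3 of day 10 held 96.1, 130.5 and 145.8 FPKM, and those of day 14, in the same order as everywhere below, 156.0, 142.1 and 208.2 FPKM. The days overlapped, since replicate 2 of day 14 lay below replicate 3 of day 10. The mean was 124.1 ± 25.4 FPKM (SD, n = 3) on day 10 and 168.8 ± 34.9 FPKM (SD, n = 3) on day 14. The log2 fold change was 0.44 (SE 0.22, 95% interval -0.05 to 0.94, adjusted p = 0.548 from limma), and the exact two-sided permutation test gave p = 0.2, where 0.1 is the smallest p that 3 samples against 3 allow. It was 0.56 without replicate 2 of day 14 and 0.28 without replicate 3. Its exons share 330 bases with the antisense gene *Gm15283* and 148 bases with *Gm49321* on the same strand, and how such reads were assigned is not known.

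*Epas1* (chromosome 17, 86753700 to 86833410, plus strand) encodes HIF-2α and was expressed well below *Hif1a*. Its level was 6.07, 13.2 and 6.78 FPKM on day 10 and 21.9, 10.1 and 16.9 FPKM on day 14. Both days had 1 sample inside the range of the other, replicate 2 in each case. The mean of 8.70 ± 3.95 FPKM (SD, n = 3) on day 10 stood against 16.3 ± 5.92 FPKM (SD, n = 3) on day 14, and the log2 fold change was 0.92 (SE 0.36, 95% interval 0.09 to 1.74, adjusted p = 0.454 from limma; exact permutation p = 0.2). It was 1.22 without replicate 2 and 0.85 without replicate 3 of day 14 and ran from 0.67 (without replicate 1 of day 14) to 1.26 with any 1 sample left out. Its unadjusted p of 0.0339 from limma held under 0.05 only without replicate 2 of day 10 or of day 14, and was 0.102 to 0.141 without replicate 1 of either day or replicate 3 of day 10 and 0.0824 without replicate 3 of day 14. The ratio of *Hif1a* to *Epas1* was 3.96, 3.29 and 4.41 on the log2 scale on day 10 and 2.83, 3.80 and 3.61 on day 14. *Hif1a* was thus above *Epas1* in all 6 samples, and the difference of the ratio between the days, -0.47, was within the spread of the samples (exact permutation p = 0.4).

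*Egln1* (PHD2, chromosome 8, 124908587 to 124949324, minus strand) is the main prolyl hydroxylase acting on HIF-1α in normal oxygen. Its level was 3.26, 7.39 and 5.15 FPKM on day 10 but 4.42, 4.42 and 18.4 FPKM on day 14. A single sample, replicate 3 of day 14, held the high value, and the other two of that day lay inside the range of day 10. The log2 fold change of 0.51 (SE 0.55, 95% interval -0.76 to 1.77, adjusted p = 0.83 from limma) was 0.84 without replicate 2 of day 14 but turned to -0.17 without replicate 3, which was also the one with the highest myeloid marker sum. The part of those cells in the *Egln1* value was not tested.

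*Egln3* (PHD3, chromosome 12, 54178981 to 54203860, minus strand) is a prolyl hydroxylase that is itself induced by HIF. Its level was 3.88, 8.02 and 10.9 FPKM on day 10 and 7.17, 3.89 and 7.34 FPKM on day 14, so all 3 day 14 samples lay within the range of day 10. It was the only 1 of the 10 with a lower mean log2 level on day 14 (log2 fold change -0.24, SE 0.40, 95% interval -1.16 to 0.68, adjusted p = 0.903 from limma). Its sign was not stable, as the value was 0.05 without replicate 2 of day 14, -0.40 without replicate 3 of day 14 and 0.08 without replicate 3 of day 10. Within samples, the log2 ratio of *Egln3* to *Egln1* ran from 0.12 to 1.07 on day 10 and was 0.69, -0.18 and -1.32 in replicates 1, 2 and 3 of day 14, and the days were not separated (exact permutation p = 0.4).

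Among 14 tested genes of 15 other HIF regulators, 1 was higher and 1 lower on day 14 at an unadjusted p under 0.05. Over all genes tested, 5.6% were higher and 860 of 19526 were lower at such a p. The 14 genes had a median log2 fold change of 0.06, and none had an adjusted p under 0.05. *Hif1an* (FIH), an asparagine hydroxylase that limits HIF transcriptional activity, was at 6.002, 6.011 and 4.40 FPKM on day 10 and 3.76, 3.38 and 3.59 FPKM on day 14. All 3 of its day 14 samples lay below day 10, with a log2 fold change of -0.59 (SE 0.22, adjusted p = 0.438 from limma). *Arnt*, the partner of both alpha subunits, was at 16.6 to 19.6 FPKM on day 10 and 20.03 to 23.0 FPKM on day 14 (log2 fold change 0.28, SE 0.15). *Siah1a*, a ubiquitin ligase gene acting on EGLN proteins, had a log2 fold change of 0.53 (SE 0.21), but a near-identical copy, *Siah1b* (1.12 to 3.38 FPKM), makes its level uncertain. *Egln2*, the third EGLN gene, named after its values were seen, was at 13.6 to 22.7 FPKM over the 6 samples and had a log2 fold change of 0.05 (SE 0.21).

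*Bnip3* (chromosome 7, 138890836 to 138909519, minus strand) encodes a mitochondrial protein that promotes mitophagy and carries the 5 motif matches printed above. Day 10 samples held 44.0, 62.4 and 66.7 FPKM and day 14 samples held 74.8, 72.6 and 101.4 FPKM. Every day 14 sample lay above every day 10 sample, with the closest pair at 66.7 and 72.6 FPKM. The mean was 57.7 ± 12.1 FPKM (SD, n = 3) on day 10 and 83.0 ± 16.0 FPKM (SD, n = 3) on day 14, with a log2 fold change of 0.53 (SE 0.21, 95% interval 0.05 to 1.01). The unadjusted p was 0.0346 and the adjusted p 0.457 from limma, and the exact permutation p was 0.1, the smallest possible. Without replicate 2 of day 14 the value was 0.62, but it was 0.38 (unadjusted p = 0.123 from limma) without replicate 3 of day 14 and 0.34 (unadjusted p = 0.133 from limma) without replicate 1 of day 10. With each sample scaled to the same FPKM sum, the days of *Bnip3* overlapped. An antisense gene, *Gm45507*, overlaps 504 bases of its exons, and without strand in the reads the pair cannot be told apart.

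*Adm* (chromosome 7, 110627661 to 110629820, plus strand) encodes adrenomedullin, a vasodilator peptide that also acts on endothelial cells. Its highest and lowest samples lay furthest apart in fold among the 10 genes, at 5.57, 15.3 and 31.7 FPKM on day 10 and 42.5, 20.4 and 35.7 FPKM on day 14. Replicates 1 and 3 of day 14 were above all of day 10, while replicate 2 lay between replicates 2 and 3 of day 10. The log2 fold change of 1.16 (SE 0.56, 95% interval -0.12 to 2.45, adjusted p = 0.546 from limma; exact permutation p = 0.2) corresponds to 2.24-fold. It dropped to 0.51 without replicate 1 of day 10, the lowest sample, and was 1.75 without replicate 3 of day 10, 1.47 without replicate 2 of day 14 and 1.07 without replicate 3 of day 14.

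Of 22 other hypoxia-induced genes, 2 were higher and 2 lower on day 14 at an unadjusted p under 0.05. Over all genes tested, 5.6% were higher and 860 of 19526 were lower at such a p. None of the 22 had an adjusted p under 0.05 (median log2 fold change 0.05). *Ndrg1*, a stress-responsive gene, was at 65.3, 87.7 and 112.2 FPKM on day 10 and 131.7, 153.8 and 210.0 FPKM on day 14 without overlap (log2 fold change 0.91, SE 0.25, adjusted p = 0.319 from limma). *Bnip3l*, the relative of *Bnip3* with a role in mitophagy, was at 10.5 to 13.1 FPKM on day 10 and 15.1 to 15.9 FPKM on day 14 (log2 fold change 0.42, SE 0.16). *P4ha1*, a subunit of the hydroxylase that modifies collagen, lay on the other side, at 121.1 to 142.2 FPKM on day 10 and 84.7 to 109.3 FPKM on day 14 (log2 fold change -0.47, SE 0.16). The hypoxia-induced genes thus did not share a direction.

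The 17 glycolysis genes had a median log2 fold change of 0.29. Of the 17, 14 had a higher mean log2 level on day 14, where 46.5% of all genes did. The 14 include *Eno1* and *Gapdh*, described below. For 4 of the 17, every day 14 sample lay above every day 10 sample, as for 7.59% of all genes. Among genes with a mean of at least 1 FPKM, these shares were 51.2% and 11.4%. None had an adjusted p under 0.05. At an unadjusted p under 0.05, where 5.6% of all genes were higher on day 14, 1 of the 17 was. This was *Hk2*, a hexokinase gene, at 17.0, 18.4 and 25.4 FPKM on day 10 and 32.9, 34.3 and 29.2 FPKM on day 14 (log2 fold change 0.68, SE 0.19, adjusted p = 0.319 from limma). For *Pgam1*, encoding phosphoglycerate mutase, the range was 6.53 to 10.1 FPKM on day 10 and 11.2 to 12.1 FPKM on day 14 (log2 fold change 0.44, SE 0.20). *Eno1*, an enolase gene, was listed at 0, 1.45 and 4.09 FPKM on day 10 and 3.49, 4.03 and 7.88 FPKM on day 14, while its near-identical copy *Gm5506* was at 55.4 to 75.8 FPKM, so its level is uncertain. *Gapdh*, also named after its values were seen, was listed at 0.125 to 0.414 FPKM, and the cause was not tested.

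**Figure D2:**
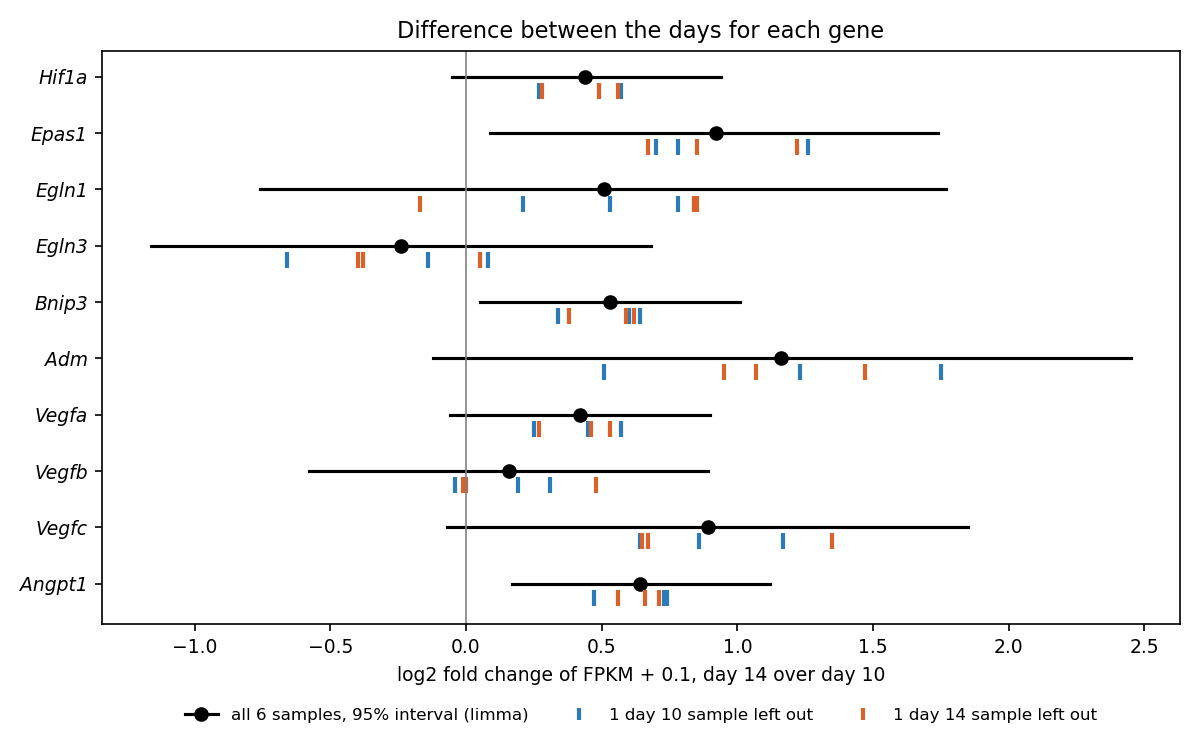
Log2 fold change of FPKM + 0.1 (x axis, day 14 over day 10) for each of the 10 genes, with limma's 95% interval over all 6 samples (black) and the value with 1 sample left out (blue ticks for day 10, orange ticks for day 14). *Angpt1*, *Bnip3* and *Epas1* have intervals above 0, whereas ticks of *Egln1*, *Egln3* and *Vegfb* fall on both sides of 0.

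*Vegfa* (chromosome 17, 46016993 to 46032369, minus strand), the main growth factor for endothelial cells, had levels of 42.3, 55.7 and 65.7 FPKM on day 10 and of 61.8, 88.1 and 68.3 FPKM on day 14. Replicate 1 of day 14 lay below replicate 3 of day 10. The highest value was in replicate 2 of day 14, the sample with the highest chondrocyte marker sum. Replicate 1 of day 10 had the lowest *Vegfa* of the 6 samples but a chondrocyte marker sum of 872.1 FPKM, the highest of day 10. Replicates 1 and 3 of day 14 had low sums (118.1 and 74.0 FPKM) and higher *Vegfa* than that sample. The part of chondrocytes in the *Vegfa* values was not tested. Means were 54.6 ± 11.8 FPKM (SD, n = 3) on day 10 and 72.7 ± 13.7 FPKM (SD, n = 3) on day 14. The log2 fold change was 0.42 (SE 0.21, 95% interval -0.06 to 0.90, adjusted p = 0.558 from limma, exact permutation p = 0.2). It was 0.27 without replicate 2 of day 14, 0.46 without replicate 3 of day 14 and 0.25 without replicate 1 of day 10.

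*Vegfb* (chromosome 19, 6982473 to 6987651, minus strand), which binds the receptor FLT1, was at 5.66, 4.11 and 6.73 FPKM on day 10 and 7.64, 3.81 and 7.49 FPKM on day 14. The lowest of all samples was a day 14 sample, replicate 2, and the days overlapped. Its log2 fold change of 0.16 (SE 0.32, 95% interval -0.58 to 0.89, adjusted p = 0.927 from limma) was 0.48 without replicate 2, 0.00 without replicate 3 and -0.01 without replicate 1 of day 14, and -0.04 without replicate 2 of day 10. *Vegfc* (chromosome 8, 54077606 to 54187096, plus strand), a growth factor of lymphatic vessels, was at 5.37, 3.91 and 8.28 FPKM on day 10 and 14.2, 5.44 and 14.6 FPKM on day 14. Replicates 1 and 3 of day 14 were above day 10 and replicate 2 was within it, giving a log2 fold change of 0.89 (SE 0.42, 95% interval -0.07 to 1.85, adjusted p = 0.533 from limma) that was 1.35 without replicate 2, 0.65 without replicate 3 and 0.67 without replicate 1 of day 14, and 0.64 without replicate 2 of day 10.

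*Vegfa* made up most of the summed level of *Vegfa*, *Vegfb* and *Vegfc* in every sample. *Pgf* (8.51 to 32.8 FPKM over the 6 samples) and *Figf* (3.30 to 16.1 FPKM), also of the VEGF family, were not in this sum. The share of *Vegfa* and its difference between the days therefore do not hold for the whole family. Its share of the summed FPKM of *Vegfa*, *Vegfb* and *Vegfc* was 79.3%, 87.4% and 81.4% on day 10 and 73.9%, 90.5% and 75.5% on day 14. The mean share was 82.7% ± 4.21 (SD, n = 3) and 80.0% ± 9.16 (SD, n = 3), a difference of -2.75 percentage points within the spread of the samples (exact permutation p = 0.6). Replicate 2 had the highest share on both days.

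*Angpt1* (chromosome 15, 42424723 to 42676977, minus strand) encodes angiopoietin 1, which activates the endothelial receptor TEK and stabilizes vessels. Its level was 8.70, 5.96 and 8.56 FPKM on day 10 and 11.6, 13.5 and 10.9 FPKM on day 14, with a gap between the highest day 10 and the lowest day 14 sample. Means were 7.74 ± 1.54 FPKM (SD, n = 3) and 12.03 ± 1.33 FPKM (SD, n = 3). The log2 fold change was 0.64 (SE 0.21, 95% interval 0.17 to 1.12, exact permutation p = 0.1), with the smallest unadjusted p of the 10 genes (0.0134) and an adjusted p of 0.374 from limma. It stayed between 0.47 and 0.74 with any 1 sample left out, at 0.56 without replicate 2 and 0.71 without replicate 3 of day 14, and the unadjusted p was over 0.05 without replicate 2 of day 10 (0.0505 from limma). An antisense gene, *Gm17473*, overlaps 737 bases of its exons. Among pericyte markers, genes of the mural cells around vessels, *Pdgfrb* also had days that did not overlap, at 40.5 to 66.6 FPKM on day 10 and 77.8 to 104.7 FPKM on day 14 (log2 fold change 0.88, SE 0.21, adjusted p = 0.305 from limma), and *Notch3* was at 0.976 to 2.49 and 3.60 to 4.81 FPKM. *Mcam* was at 0.677 to 1.29 FPKM on day 10 and 1.14 to 2.32 FPKM on day 14. *Cspg4* and *Kcnj8*, named after their values were seen, lay on the other side, with log2 fold changes of -0.96 and -0.43. All 8 pericyte markers together, most of it *Acta2* (235.7 to 593.8 FPKM), summed to 320.7 to 678.9 FPKM on day 10 and 478.1 to 577.9 FPKM on day 14, which overlap, and their part in the *Angpt1* values was not tested.

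**Figure D3:**
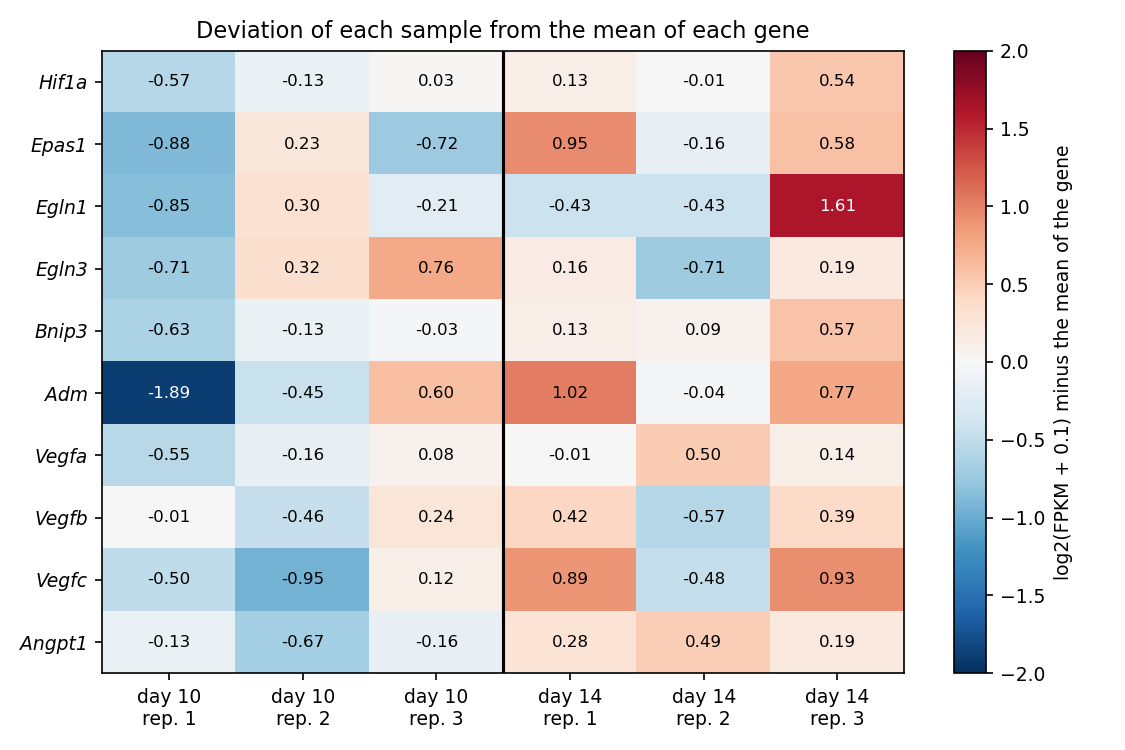
Each sample's log2(FPKM + 0.1) minus the mean of the gene over the 6 samples, for the 10 genes (rows) and 6 samples (columns), blue below and red above the mean. Replicate 1 of day 10 is below the mean in all 10 genes, down to -1.89 for *Adm*, and the darkest red is *Egln1* in replicate 3 of day 14 (1.61).

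Samples of one day differed along several genes at the same time. Replicate 1 of day 10 was the lowest of all 6 samples in 7 of the 10 genes. Within day 14, replicate 2 was the lowest in 7 of the 10 genes and the highest in *Vegfa* and *Angpt1*. Replicate 3 of day 14 was the highest of the 6 samples in 4 genes and replicate 1 of day 14 in 3. How often each sample was lowest or highest over all genes was not counted. These counts therefore cannot be read as particular to the 10 genes. Without replicate 2 of day 14, all 10 genes had a higher mean log2 level on day 14, where 51.7% of all genes did. In that setting, 7 of the 10 had days that did not overlap, against 15.3% of all genes, and 6 were higher at an unadjusted p under 0.05 from limma, against 7.01%. Without replicate 3 of day 10, these counts were 10, 6 and 6, against 45.8%, 12.9% and 5.94% of all genes. Without replicate 1 of day 10 or replicate 3 of day 14, 1 gene had such an unadjusted p, against 3.0% and 4.02% of all genes.

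The order of the mean levels was nearly the same on both days. *Hif1a*, *Bnip3*, *Vegfa*, *Adm*, *Epas1* and *Angpt1* took places 1 to 6 on day 10 and on day 14. On both days all *Hif1a* samples were above all *Bnip3* samples and all *Vegfa* samples above all *Adm* samples, whereas the samples of other neighbours in the order overlapped, and *Vegfb* was at place 9 on both days while *Egln3*, *Vegfc* and *Egln1* changed places. Over the 6 samples, the centred log2 levels most like those of *Vegfa* among 11161 genes with a mean of at least 1 FPKM were those of *Dpysl3* (root mean square difference 0.0534), *Gclm* (0.0799), *Lims1* (0.0868), *Zranb1* (0.0872) and *Pdlim5* (0.0911). *Dpysl3*, for example, was at 86.0, 107.8 and 130.2 FPKM on day 10 and 116.3, 165.7 and 141.7 FPKM on day 14. Of the described genes, *Bnip3* (0.258, place 1267) and *Hif1a* (0.273, place 1585) came closest.

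Most other angiogenic ligands and inhibitors had a higher mean log2 level on day 14. This held for 18 of 20 such genes, where 46.5% of all genes did so. At an unadjusted p under 0.05, 8 were higher, where 5.6% of all genes were, and 1 was lower, where 860 of the 19526 genes tested were. For 9, every day 14 sample lay above every day 10 sample, as for 7.59% of all genes. Among genes with a mean of at least 1 FPKM, 51.2% had a higher mean log2 level on day 14. Of all genes at that level, 9.11% were higher at such a p, and 11.4% had all day 14 samples above day 10. The median log2 fold change of the 20 genes was 0.55. None had an adjusted p under 0.05. *Cxcl12*, a chemokine that draws CXCR4+ cells and is made by stromal cells, was at 113.9, 133.6 and 196.4 FPKM on day 10 and 549.3, 217.5 and 378.9 FPKM on day 14 (log2 fold change 1.31, SE 0.34, adjusted p = 0.319 from limma). For *Angptl4*, a lipoprotein lipase inhibitor, the values were 106.8, 142.0 and 96.5 FPKM and 165.1, 177.5 and 413.6 FPKM (log2 fold change 1.02, SE 0.34), and *Ang*, encoding angiogenin, had a log2 fold change of 0.75 (SE 0.25). The genes *Pgf*, *Figf* and *Angpt2* are named after their values were seen. *Pgf*, a VEGF family ligand of FLT1, was at 13.6, 24.7 and 32.8 FPKM on day 10 and 8.51, 11.6 and 16.1 FPKM on day 14 and was the gene lower at an unadjusted p under 0.05 (log2 fold change -0.92, SE 0.34, adjusted p = 0.431 from limma). *Figf* (VEGF-D) had a log2 fold change of 0.89 (SE 0.44) and *Angpt2*, the counterpart of *Angpt1*, one of 0.19 (SE 0.36).

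A further list held 10 genes for receptors of the ligands described above (the VEGF ligands, angiopoietin 1 and adrenomedullin). Among them the neuropilin genes, which encode co-receptors found also outside the endothelium, had the highest levels. At an unadjusted p under 0.05, 2 of the 10 receptor genes were higher on day 14 (*Flt1* and *Nrp1*), where 5.6% of all genes were. Their median log2 fold change over the 10 was 0.75, and none had an adjusted p under 0.05. *Nrp1* was at 11.5, 11.8 and 15.0 FPKM on day 10 and 22.8, 18.8 and 21.1 FPKM on day 14 (log2 fold change 0.71, SE 0.17, adjusted p = 0.305 from limma), whereas *Nrp2* was at 70.3, 79.5 and 44.5 FPKM and 36.1, 59.2 and 16.3 FPKM (log2 fold change -0.94, SE 0.43). *Flt1* was at 0.672, 0.957 and 1.25 FPKM on day 10 and 13.8, 1.83 and 4.50 FPKM on day 14 (log2 fold change 2.27, SE 0.65, adjusted p = 0.337 from limma). *Kdr*, the main VEGF receptor of endothelial cells, was at 0.289 to 0.959 FPKM over all 6 samples. The 12 endothelial markers summed to 2.27, 5.18 and 3.49 FPKM on day 10 and 11.8, 6.11 and 8.51 FPKM on day 14, so these low sums did not overlap between the days, and *Cldn5*, *Emcn*, *Erg* and *Robo4* were at 0 in at least 1 sample. *Esam* was at 0.124 to 0.662 FPKM on day 10 and 1.12 to 2.39 FPKM on day 14, and *Plvap* at 0.113 to 1.11 and 1.03 to 2.58 FPKM. The part of endothelial cells in the receptor and ligand values was not tested, and in bulk samples fewer cells of a type and less RNA per cell cannot be told apart.

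**Figure D4:**
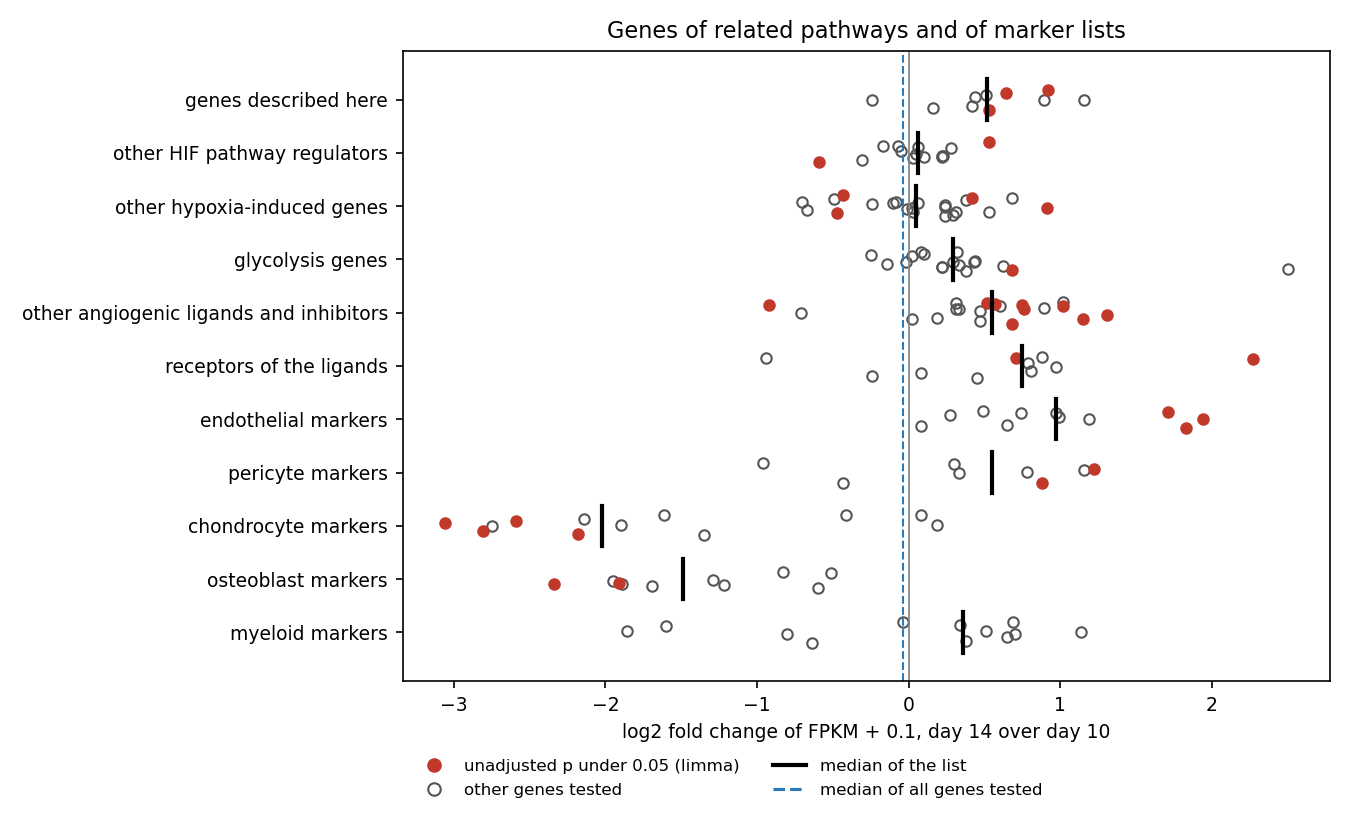
Log2 fold change of FPKM + 0.1 (x axis, day 14 over day 10) of each tested gene (points, red for an unadjusted p under 0.05 from limma) in the 10 genes described, related pathway lists and marker lists (rows, with random vertical scatter), with list medians (black bars) and the median of all genes tested (dashed line, -0.04). Medians lie at 0.52 for the 10 genes, 0.55 for other angiogenic ligands and inhibitors and -1.49 for OB markers.

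All 10 OB markers and 10 of the 12 chondrocyte markers had a lower mean log2 level on day 14. Of all 19526 genes tested, 10441 did. The 10 OB markers had a median log2 fold change of -1.49. At an unadjusted p under 0.05, 2 were lower on day 14 (*Sp7* and *Dlx5*, both OB transcription factor genes), where 860 of the 19526 genes tested were. The 10 markers summed to 32302 to 64768 FPKM on day 10 and 18045 to 49398 FPKM on day 14. *Ibsp*, a bone matrix gene, was at 25254, 15910.0 and 10072 FPKM on day 10 and 3460.1, 15632 and 1293 FPKM on day 14. The 12 chondrocyte markers had a median of -2.02. *Sox9* and *Matn3*, named after their values were seen, had log2 fold changes of 0.08 and 0.19. At an unadjusted p under 0.05, 4 of the 12 were lower (among them *Col11a2*, *Col9a1* and *Col9a3*). Myeloid markers had a median of 0.36 and 0 of 12 with such a p from limma, and *Ptprc*, which encodes the CD45 used in the gate, was at 0.134 to 2.99 FPKM, with *Itgam* at 0.151 to 2.72 FPKM and *S100a9* between 0 and 92.1 FPKM. Among 12 genes known to respond to tissue dissociation, 9 had a higher and 3 a lower mean log2 level on day 14 (median log2 fold change 0.28). At an unadjusted p under 0.05, 2 were higher, where 5.6% of all genes were. These were *Hspa1b* (87.8, 34.8 and 86.4 FPKM, then 220.4, 190.5 and 162.4 FPKM) and *Hspa1a* (log2 fold change 1.40, SE 0.42). *Ier3* had a log2 fold change of 0.38 (SE 0.19). The lower genes, named after their values were seen, were *Atf3* (-0.43), *Ier2* (-0.17) and *Fos* (-0.10). The part of the second digestion on day 14 in the levels of the 10 genes was not tested.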

How the data were processed

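RNA-seq of FACS-sorted ECFP+ OBs of ectopic bone (day 10 and day 14, 3 samples each) was analysed from the FPKM per gene that the authors deposited, 1 file per sample. cDNA was made with a SMART-Seq kit, which does not mark strand. Per the submitters' processing notes, TopHat2 2.0.13, Bowtie2 2.2.3, SAMtools 0.1.19 and Cufflinks 2.2.1 were used with mm10; the annotation and the treatment of multi-mapped reads are not given in the sources used here. Symbols turned into dates, at most 25 in a file, were restored by position.

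Genes with a mean FPKM above 0.1 were compared with limma 3.58.1 (R 4.3.3) on log2(FPKM + 0.1) with a mean-variance trend and the day as the only factor, and single values with exact two-sided permutation tests. The fit was tested on simulated data. Depth was estimated from 1977 genes with 1 transcript and a fragment length of 230 bases, and between 75.4% and 79.9% of the low values lay within 0.1 of a whole read. This bears on counting error only. The labels call the samples biological replicates without naming animals, so p-values measure the spread between these samples. Coordinates follow GENCODE vM21.

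The 10 genes, the lists and rules were chosen with earlier results of these data known. Named are the 10 genes, up to 3 genes per list with the smallest p and a mean of at least 1 FPKM, the 5 genes most like *Vegfa*, and markers needed to describe a sample. Alternatives were other pseudocounts, filters, scalings and variance models, a replicate block and leaving out each sample.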

Additional observations from a re-analysis of the deposited data

How the results depend on the processing

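In the 14 other settings, 0 of the 10 genes reached an adjusted p under 0.05 from limma. Of 140 values of a gene under another setting, 135 kept their direction and 5 reversed, all 5 with 1 sample left out. With 1 sample left out, *Egln1* ran from -0.17 to 0.85 on the log2 scale, *Egln3* from -0.66 to 0.08 (reversed at 0.05 and 0.08), *Vegfb* from -0.04 to 0.48 (reversed at -0.04 and -0.01) and the share of *Vegfa* from -8.02 to 0.307 percentage points. The count of genes higher at an unadjusted p under 0.05 was 3, and it was 1 without the mean-variance trend and 1 to 6 with 1 sample left out. The count of genes whose days did not overlap was 2, and it was 1 with scaling to the same FPKM sum and 2 to 7 with 1 sample left out. Over all genes, 3 had an adjusted p under 0.05, and 3 to 76 with 1 sample left out, with the highest count without replicate 2 of day 14. The cause was not tested. Whether same-numbered samples share more than a number is not known. Across genes, the correlation of their deviations from the mean of the day was r = 0.058, -0.00584 and 0.0887. Samples numbered 1 were each other's best match between the days, as were those numbered 3, but not those numbered 2. With 3 samples per day, such correlations cannot settle whether samples were paired. With the number as a replicate block, 5 of the 10 genes were higher at an unadjusted p under 0.05 (6.15% of all genes) and 2 of all genes tested an adjusted p under 0.05 from limma. Depth limits *Vegfb* most, at 24 estimated reads in its lowest sample.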

Other observations

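The 7 erythroid markers, which would mark red blood cells carried along in vessels, summed to 20.6 to 77.0 FPKM on day 10 and 27.7 to 80.5 FPKM on day 14, and the ranges overlapped. The globin genes moved in different directions, with log2 fold changes of -3.94 for *Hbb-b2*, 2.31 for *Hba-a2* and -1.64 for *Hba-a1*, and as near-identical copies their levels are uncertain.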
